A study of Mus musculus with 26 samples.

Results

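Group3 neurospheres were compared with Trp53 Cdkn2c neurospheres across the whole array. The comparison used the 3 arrays of each group whose titles carry the code dka, which are 6 of the 26 arrays of the series, and every probe set assigned to a single gene symbol. Both groups are mouse cells on the C57BL/6 strain, grown as neurospheres, which are floating spheres of cultured neural cells. The Trp53 Cdkn2c neurospheres are labelled Trp53-/-, Cdkn2c-/-, with the cell type given as granule neural progenitors. The Group3 neurospheres carry the same Trp53-/- and Cdkn2c-/- alleles with the addition Myc, and their cell type is given as medulloblastoma cells. Both groups therefore lack Trp53, the main DNA damage response transcription factor, and Cdkn2c, an inhibitor of CDK4 and CDK6. How Myc was brought into the cells, their age and passage, and whether a group is 1 clone or pooled animals are not given in the sources used here. The other 20 arrays, which are tumors and a further 4 Group3 neurosphere arrays, entered the fit only through the shared estimate of spread. They also counted in the choice of each gene's probe set, which was the brightest on average over all 26 arrays.

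Medulloblastoma is a malignant tumor of the developing cerebellum. One of its subgroups, called Group 3, is marked by high MYC activity and a poor outcome, and it differs from the Sonic hedgehog subgroup, which arises from granule neuron progenitors. MYC and its relative MYCN are transcription factors that raise growth, metabolism and ribosome production, and granule progenitors normally depend on MYCN while they divide. By the labels, the comparison sets neurospheres with added Myc against neurospheres with the same deletions and no added Myc. The array did not show that addition. The Myc probe set read 7.94, 8.28 and 7.76 on the Group3 arrays and 8.13, 9.06 and 8.09 on the Trp53 Cdkn2c arrays, a difference of -0.44 (SE 0.5, limma adjusted p = 0.607) that was not called. Which form of Myc was added, and whether this probe set reads it, is not given in the sources used here, so the Myc label was not checked by these values.

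The 6 arrays had similar overall distributions, with median log2 intensities of 5.22 to 5.29. Over all 17097 genes, the SD of the difference between arrays of the same group was 0.405 to 0.573, and between arrays of different groups 1.07 to 1.12. Trp53 Cdkn2c replicate 3 stood apart from its group in the sex-linked genes. Xist, the RNA that silences an X chromosome in female cells, was 12.8 on that array and 5.06 to 6.99 on the other 5, whereas Eif2s3y, a Y-linked gene, was 3.34 there and 8.86 to 9.69 on the others. Without that array, 1970 genes were called higher and 1376 lower in Group3 neurospheres. Whether the 3 arrays of a group represent different animals or cultures is not stated, and the p-values below therefore measure spread between arrays only. That spread is pooled over all 26 arrays. Arrays with the title code mmm, other than Group3 neurosphere replicate 4, cover a wider range of values. Group3 tumor mmm replicate 1 ran from -0.03 to 15.83, against 2.67 to 13.86 on Trp53 Cdkn2c replicate 1. An SE can therefore be larger or smaller than the 6 arrays alone would give. Neurod1 had an SE of 1.03, with an SD of 0.20 in Group3 and 0.25 in Trp53 Cdkn2c neurospheres. Its SD was 3.84 in mmm Group3 neurosphere replicates 1 to 3. In the other direction, Cyp11a1, described below, had an SE of 0.28, with an SD of 0.41 in Group3 and 0.74 in Trp53 Cdkn2c neurospheres.

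Atoh1, the transcription factor that defines granule progenitors, read 3.47, 3.58 and 3.99 on the Group3 arrays and 9.53, 9.01 and 9.998 on the Trp53 Cdkn2c arrays. The label of granule progenitors thus had its defining marker in the Trp53 Cdkn2c neurospheres and not in the Group3 neurospheres. Markers of cells other than neural cells were also unequal. Averaged over 20 microglia and macrophage markers, the Group3 arrays lay at 3.89 to 4.02 and the Trp53 Cdkn2c arrays at 5.70 to 6.14, and 12 of the 20 fell and none rose. Of 17 endothelial markers 4 fell, with mean levels of 4.08 to 4.15 against 4.92 to 5.42, and of 5 red blood cell genes 2 fell, with 4.24 to 4.58 against 5.70 to 6.28. The 16 lymphocyte and neutrophil markers lay between 3.72 and 3.92 in their mean on all 6 arrays, and none was called. Markers of astrocytes and radial glia were higher in part. Averaged over 19 such markers, the Group3 arrays lay at 8.33 to 8.80 and the Trp53 Cdkn2c arrays at 6.02 to 6.56, and 9 rose, among them Aldoc, Acsbg1 and Mlc1. Slc1a2, a glutamate transporter, fell by 1.43 (SE 0.51, limma adjusted p = 0.0474), a call lost when any single array was left out. The count of rises was 4 without Group3 replicate 1 or Trp53 Cdkn2c replicate 1 or 2, 5 without Group3 replicate 2, and 14 fitted on the 6 arrays alone, and the median difference of 2.14 was 2.07 to 2.52 with an array left out. Fabp7, a fatty acid binding protein of radial glia, read 13.32, 13.30 and 12.39 against 7.86, 7.36 and 9.02 and rose by 4.92 (SE 1.68, limma adjusted p = 0.0398). Gfap, the intermediate filament of astrocytes (4.54, 3.75 and 4.07 against 4.39, 5.95 and 4.76), and Aqp4, their water channel (4.25, 4.18 and 4.14 against 4.99, 4.29 and 4.13), were not called. In bulk samples fewer cells of a type and less RNA per cell cannot be told apart, and the part of any of these cells in the differences below, those of metabolic genes included, was not tested.

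A gene was called when its limma p-value, adjusted over all genes by the Benjamini-Hochberg method, was below 0.05. Of 17097 genes, 2288 (13.4%) were called higher and 1577 (9.22%) lower in Group3 neurospheres, which is 22.6% in either direction. The median difference over all genes was 0.08 on the log2 scale. Differences of at least 2-fold were called for 1386 genes higher and 1006 lower, of at least 8-fold for 205 and 225, and of at least 32-fold for 22 and 51, so small rises outnumbered small falls while the largest differences were mostly falls. The 3 Group3 arrays all lay above the 3 Trp53 Cdkn2c arrays for 24.8% of genes and all below for 16.3%. Array values are log2 intensities in the order of replicates 1, 2 and 3, the Group3 arrays first, and a rise or fall is the difference of the group means on the log2 scale. Gene lists are described below by how many members were called and by their median difference. Where no member of a list was called in a direction, none passed an unadjusted limma p of 0.05 in that direction either, unless the text gives a number. Tested against a change of 1.5-fold in place of no change, 684 genes were higher and 545 lower. For 1666 of the 3865 called genes a group mean lay below the median of all gene values on the 6 arrays. That median uses 1 probe set per gene, unlike the array medians given above. Over genes, the median of the group means was 5.95 in Group3 and 5.81 in Trp53 Cdkn2c neurospheres. Arrays compress differences at low signal, and the size of such a difference may be too small.

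**Figure D1:**
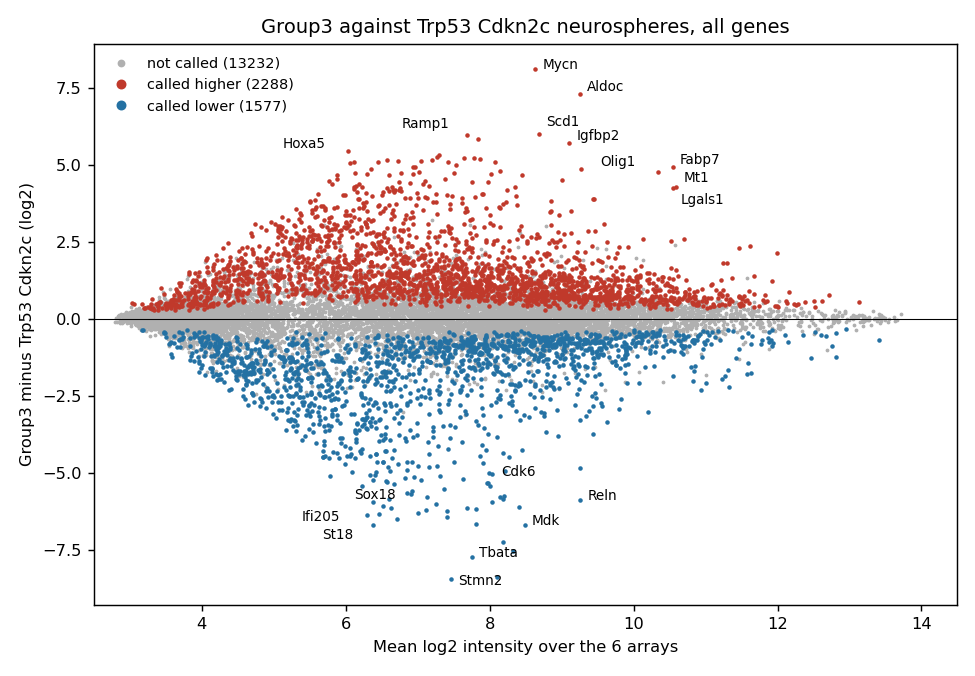
Difference between the groups (y axis, Group3 minus Trp53 Cdkn2c, log2) against the mean log2 intensity over the 6 arrays (x axis), 1 point for each of 17097 genes, with 2288 called higher in red, 1577 called lower in blue and the rest in grey. The lower edge reaches further from 0 than the upper edge, with 51 genes called at least 32-fold lower and 22 at least 32-fold higher.

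Apart from Mycn, the 5 largest rises among genes whose arrays did not overlap were those of Aldoc, Scd1, Ramp1, Skap2 and Igfbp2. Aldoc, the aldolase of glycolysis in astrocytes and other brain cells, read 13.26, 12.66 and 12.79 on the Group3 arrays and 5.32, 5.07 and 6.45 on the Trp53 Cdkn2c arrays. It rose by 7.29 (SE 1.08, limma adjusted p = 6.03e-05). Scd1, a desaturase that makes monounsaturated fatty acids, rose by 6.01 (SE 0.48, limma adjusted p = 3.77e-08), on arrays that read 11.70, 11.60 and 11.77 against 5.52, 6.87 and 4.64. In both genes every Group3 array lay far above every Trp53 Cdkn2c array. Ramp1, which pairs with the calcitonin receptor-like receptor to bind the peptide CGRP, read 10.94, 10.64 and 10.40 against 4.90, 4.61 and 4.61 and rose by 5.95. Skap2, an adaptor protein of integrin signalling, read 11.001, 10.46 and 10.82 against 4.49, 5.07 and 5.19 and rose by 5.85. Their groups were as widely separated, and the Trp53 Cdkn2c values lay around or below the array medians.

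Among genes bright in both groups, Lgals1, which encodes the sugar-binding protein galectin-1, read 12.62, 12.32 and 13.09 against 8.01, 8.06 and 9.17 and rose by 4.26 (SE 0.32, limma adjusted p = 2.48e-08). Mt1, a metallothionein that binds zinc and copper, read 13.13, 11.81 and 13.23 against 7.80, 7.22 and 10.36 and rose by 4.26 (SE 0.55, limma adjusted p = 1.46e-05). Its Trp53 Cdkn2c replicate 3 was the highest of its group and still below every Group3 array. Olig1, an oligodendrocyte lineage transcription factor, rose by 4.77 (SE 1.45, limma adjusted p = 0.0218), but limma adjusted p was 0.0552 to 0.0640 when Group3 replicate 1 or 2 or Trp53 Cdkn2c replicate 1 or 2 was left out. Switching was defined as below log2 5 on all 3 arrays of one group and above log2 8 on all 3 of the other, and 25 genes were on in Group3 neurospheres and 44 in Trp53 Cdkn2c neurospheres. Those on in Group3 neurospheres included Mlc1, a membrane protein of astrocytes, Galc, a lysosomal enzyme that breaks down myelin lipids, Adhfe1, a mitochondrial alcohol dehydrogenase, and Pla2g4a, a phospholipase that frees arachidonic acid.

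**Figure D2:**
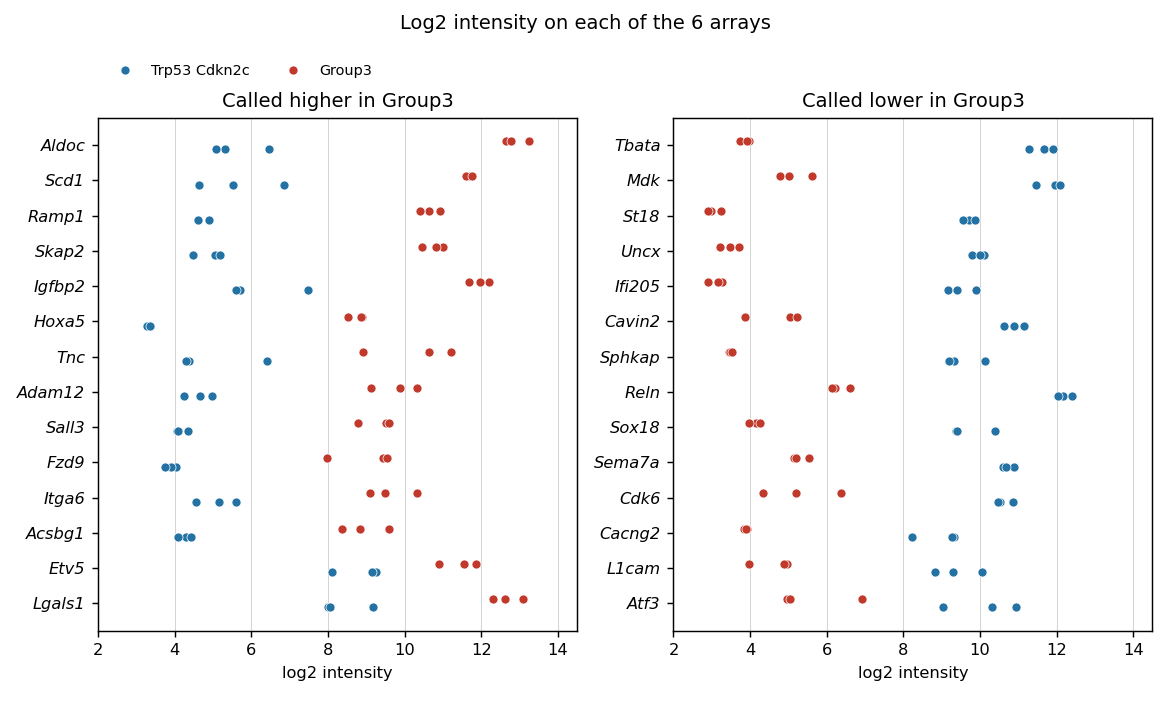
Log2 intensity (x axis) of 14 genes called higher (left) and 14 called lower (right) in Group3 neurospheres, 1 point for each array, red for the 3 Group3 arrays and blue for the 3 Trp53 Cdkn2c arrays. The colours do not overlap in any of these genes, and the red points of Tbata lie at 3.74 to 3.98 against 11.3 to 11.9 for the blue.

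Growth factor genes changed in opposite directions within families. Mdk and Ptn encode midkine and pleiotrophin, which together form a family of heparin-binding growth factors. Mdk read 4.77, 5.03 and 5.62 against 11.95, 11.47 and 12.08 and fell by 6.69 (SE 0.59, limma adjusted p = 1.62e-07). Ptn read 12.69, 12.68 and 13.03 against 10.03, 10.20 and 11.04 and rose by 2.38 (SE 0.75, limma adjusted p = 0.027), though limma adjusted p was 0.0558 to 0.0925 without Group3 replicate 1, 2 or 3 or Trp53 Cdkn2c replicate 1 or 2. Ptprz1, a receptor phosphatase that binds both factors, rose by 4.86 (SE 1.28, limma adjusted p = 0.00899). Of 34 growth factor ligands 7 were called higher and 5 lower, and the higher count was 2 without Group3 replicate 1 or Trp53 Cdkn2c replicate 1 and 3 without Group3 replicate 3. Fgf1 rose by 3.64 (SE 0.75, limma adjusted p = 0.0013), whereas Fgf9 fell by 3.48 (SE 0.32, limma adjusted p = 2.42e-07) and Fgf5 by 2.5.

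In the insulin-like growth factor axis, 3 of 12 measured genes rose and 3 fell. The 3 that rose encode secreted proteins that bind the growth factors outside the cell. Igfbp2 read 12.20, 11.69 and 11.97 on the Group3 arrays and 7.47, 5.70 and 5.60 on the Trp53 Cdkn2c arrays, a rise of 5.70 (SE 0.44, limma adjusted p = 2.89e-08). Igfbp3 rose by 5.22 and Igfbp4 by 3.84. Igf2, the fetal growth factor, read 4.53, 4.12 and 4.98 against 9.28, 8.39 and 6.19 and fell by 3.41 (SE 0.71, limma adjusted p = 0.00147), with Group3 arrays around or below their medians. Igfbpl1, a related binding protein of neural progenitors, fell by 6.14 (SE 0.74, limma adjusted p = 6.59e-06). Irs1, an adaptor of the insulin receptors, fell by 1.51, a call lost at a limma adjusted p of 0.0756 to 0.158 without Group3 replicate 1 or 3 or any single Trp53 Cdkn2c array. The receptor genes Igf1r (-0.58) and Insr (0.09) were not called. Neither were the binding proteins Igfbp5 (0.03) and Igfbp6 (0.36) or the ligand Igf1 (-0.12).

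Genes of fatty acid breakdown were called in one direction. Of 29 measured genes of fatty acid oxidation and ketone bodies 17 were called higher and none lower, with a median difference of 0.91 against 0.08 for all genes. Cpt1a, the enzyme that commits long-chain fatty acids to the mitochondrion, read 8.23, 9.65 and 8.63 on the Group3 arrays and 5.35, 5.97 and 6.77 on the Trp53 Cdkn2c arrays. It rose by 2.81 (SE 0.41, limma adjusted p = 5.04e-05). Acadl, which starts the oxidation of long-chain fatty acids, read 10.40, 10.80 and 11.18 against 7.87, 7.40 and 8.52 and rose by 2.86 (SE 0.33, limma adjusted p = 3.36e-06). Slc25a20, the carnitine carrier of the inner membrane, rose by 1.71, Cpt2, which works beside it, by 1.52, and Acaa2, the thiolase of the last step, by 1.67. The entry, transport and cleavage steps were thus all represented among the calls. The count was 14 to 17 when each array was left out in turn.

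Fatty acid synthesis and cholesterol synthesis were also higher in part. Of 33 genes of fatty acid and triglyceride synthesis 10 rose and 3 fell, with a median of 0.61. Besides Scd1, Acsbg1, a fatty acid activating enzyme of brain, read 8.85, 9.59 and 8.38 against 4.29, 4.42 and 4.08 and rose by 4.68 (SE 0.62, limma adjusted p = 1.99e-05), and Me1, a cytosolic source of NADPH, rose by 3.08 (SE 0.47, limma adjusted p = 7.71e-05). Fasn, the fatty acid synthase, read 10.76, 10.85 and 10.44 against 10.57, 10.40 and 10.62 and was not called (difference 0.15, limma adjusted p = 0.547). Of 19 cholesterol synthesis genes 11 rose and none fell, with a median of 0.90. Averaged over the list, the Group3 arrays lay at 9.49, 8.32 and 9.20 and the Trp53 Cdkn2c arrays at 8.16, 8.23 and 8.21. Group3 replicate 2 thus lay near the Trp53 Cdkn2c level. Sqle, a rate-limiting monooxygenase of the pathway, rose by 1.24 and Fdps, which makes farnesyl pyrophosphate, by 1.5. Without Group3 replicate 1 the count of higher cholesterol genes was 6, and the median over the arrays left out ran from 0.70 to 1.16.

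Respiratory chain genes were higher by small amounts. Of 54 measured genes of the respiratory chain and ATP synthase 27 rose and none fell, with a median difference of 0.41. Fitted on the 6 arrays alone, 15 rose. Ndufs6, a subunit of complex I, read 11.39, 10.94 and 11.26 on the Group3 arrays and 9.996, 9.81 and 9.90 on the Trp53 Cdkn2c arrays, a rise of 1.29 (SE 0.12, limma adjusted p = 3.84e-07). Cox7c, a subunit of complex IV, rose by 1.003, and Ndufv3, another complex I subunit, by 0.96. Ndufs6 and Cox7c lie on chromosome 13, which is described below. The 49 members placed elsewhere had 23 calls higher and none lower, with a median of 0.39. In the tricarboxylic acid cycle 11 of 29 genes rose and 1 fell, and without the chromosome 13 gene Sdha 10 of 28 rose. Suclg2, a succinyl-CoA ligase subunit, rose by 2.14 (SE 0.23, limma adjusted p = 1.43e-06), and Pdp1, a phosphatase that activates pyruvate dehydrogenase, fell by 2.17 (SE 0.36, limma adjusted p = 0.000187).

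Glycolysis followed the same direction with an exception at its first step. Of 19 measured genes of glycolysis and lactate 9 rose and 1 fell, with a median of 0.86. Pgk1, phosphoglycerate kinase, read 12.46, 11.62 and 12.53 against 10.41, 10.33 and 10.45 and rose by 1.80 (SE 0.25, limma adjusted p = 2.86e-05). Aldoa rose by 1.81 and Pfkl, a phosphofructokinase, by 2.60 (SE 0.52, limma adjusted p = 0.00106). The single gene that fell was Hk2, a hexokinase, which read 9.67, 8.89 and 8.61 against 10.36, 10.24 and 10.66 and fell by 1.36 (SE 0.33, limma adjusted p = 0.00453). Gapdh read 13.20, 12.74 and 13.15 against 12.79, 12.84 and 12.87, with a difference of 0.20 that was not called. Eno1b, which was also called higher, is nearly identical in sequence to Eno1 and is uncertain. Pdk1, a kinase that shuts pyruvate out of the mitochondrion, rose by 4.18 (SE 0.37, limma adjusted p = 1.62e-07). It belongs to a list of 26 hypoxia response genes, of which 4 rose and 1 fell (19.2% called, against 22.6% of all genes). The list had 2 higher without Group3 replicate 1 and 9 higher without Group3 replicate 2. Averaged over the list, Group3 replicates 1, 2 and 3 lay at 8.52, 7.22 and 8.21, and the Trp53 Cdkn2c arrays at 6.94 to 7.01.

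The hypoxia-inducible factors are known to bind the core ACGTG, and the promoters of 3 glycolysis genes that rose are shown because they hold this core. The sequences are RefSeq promoters on the mouse build GRCm38.p6, from 250 bases before to 50 after the start of transcription, written 5′ to 3′ on the strand of the gene, with the core in capitals on either strand. Pgk1 lies at chrX:106186850-106187149 on the plus strand, Aldoa at chr7:126799129-126799428 on the minus strand and Aldoc at chr11:78322823-78323122 on the plus strand.
Pgk1: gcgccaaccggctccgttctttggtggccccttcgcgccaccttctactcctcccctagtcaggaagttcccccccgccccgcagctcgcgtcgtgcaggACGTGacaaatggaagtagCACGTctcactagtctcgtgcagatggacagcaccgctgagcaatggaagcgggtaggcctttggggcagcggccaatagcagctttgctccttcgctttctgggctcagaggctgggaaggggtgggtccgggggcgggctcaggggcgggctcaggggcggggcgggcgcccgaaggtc
Aldoa: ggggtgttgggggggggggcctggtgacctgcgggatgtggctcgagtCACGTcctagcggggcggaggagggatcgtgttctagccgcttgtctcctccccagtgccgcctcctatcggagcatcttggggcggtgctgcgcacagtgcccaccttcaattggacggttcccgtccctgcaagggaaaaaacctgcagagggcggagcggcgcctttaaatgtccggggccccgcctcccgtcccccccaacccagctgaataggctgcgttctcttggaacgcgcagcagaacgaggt
Aldoc: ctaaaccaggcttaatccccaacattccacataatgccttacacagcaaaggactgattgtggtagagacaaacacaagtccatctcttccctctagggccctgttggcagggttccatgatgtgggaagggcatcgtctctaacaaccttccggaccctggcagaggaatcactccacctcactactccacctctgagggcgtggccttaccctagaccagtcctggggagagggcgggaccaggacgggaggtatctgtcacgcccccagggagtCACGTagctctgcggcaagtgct
Pgk1 held 2 matches, and Aldoa and Aldoc held 1 each. Of the 17 glycolysis genes with a promoter to search, 11 held the core in at least 1 promoter. Among the 11 were Hk2, which fell, and Gapdh, which was not called. Counted by promoter, as in the shares that follow, 13 of the 26 promoters of the 17 genes held it. Over the array, 25.4% of 2384 promoters of genes called higher, 21.9% of 1690 promoters of genes called lower, 22.5% of 12879 promoters of measured genes without a call and 19.6% of all 32851 promoters held ACGTG on either strand. The longer motif CACGTG, the E-box that MYC and MAX bind, contains ACGTG and was found in 9.40%, 7.22%, 8.80% and 7.15% of the same promoters. A match is a run of letters, and binding was not measured.

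Genes of glutathione and oxidant defence gave 15 calls higher and 3 lower among 39 measured, with a median of 0.51. Gstk1, a mitochondrial and peroxisomal glutathione transferase, read 7.81, 8.99 and 7.59 against 3.91, 4.82 and 4.33 and rose by 3.77 (SE 0.59, limma adjusted p = 0.000102). Mgst1, a membrane glutathione transferase, rose by 3.51 (SE 0.80, limma adjusted p = 0.00299) and Nqo1, a quinone reductase, by 3.28 (SE 0.48, limma adjusted p = 5.30e-05). Gclc (0.23) and Gclm (0.36), the subunits that make glutathione's precursor, were not called. In serine, glycine and one-carbon metabolism 7 of 18 genes rose and none fell, and the count was 4 without Trp53 Cdkn2c replicate 2. Cbs and Cth, the enzymes that carry homocysteine to cysteine, rose by 3.52 (SE 0.71, limma adjusted p = 0.00109) and 2.67 (SE 0.5, limma adjusted p = 0.000544). Cbs read 8.33, 8.53 and 8.38 against 5.27, 4.66 and 4.75, with no overlap. Abcc4, an exporter of nucleotides and drugs, read 8.56, 9.07 and 8.89 against 4.01, 4.79 and 5.25 and rose by 4.16 (SE 0.30, limma adjusted p = 1.05e-08), one of 3 drug efflux transporters called among 11, with none lower (1 lower at an unadjusted limma p of 0.05). That count of 3, which is 27.3% called against 22.6% of all genes, was 1 without Group3 replicate 3 or Trp53 Cdkn2c replicate 2.

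Feedback inhibitors of the MAPK pathway and the phosphatases that act on it were called in both directions. The Sprouty, Spred and Etv genes are transcribed when growth factor receptors activate ERK, and Sprouty and Spred proteins then damp the signal. Of 20 measured genes 9 rose and 4 fell, with a median of 0.87. Spry4 read 8.45, 8.87 and 8.69 on the Group3 arrays and 5.60, 5.91 and 5.28 on the Trp53 Cdkn2c arrays. It rose by 3.07 (SE 0.86, limma adjusted p = 0.0134). Il17rd, an inhibitor of FGF signalling, rose by 2.72, Spry1 by 2.33 and Etv5 by 2.59 (SE 0.65, limma adjusted p = 0.00629), on arrays that read 10.89, 11.86 and 11.55 against 8.11, 9.24 and 9.16. All 4 genes that fell encode dual specificity phosphatases, led by Dusp1 at -2.59 and Dusp10 at -2.19, and Dusp7 was called higher. Among 27 receptor tyrosine kinases 4 rose and 3 fell (25.9% called, against 22.6% of all genes). Fgfr1 read 9.23, 9.67 and 9.5 against 8.01, 8.09 and 7.93 and rose by 1.46 (SE 0.28, limma adjusted p = 0.000638), Erbb2 rose by 2.05, and Pdgfra, which marks oligodendrocyte progenitors, read 4.52, 4.54 and 4.48 against 8.55, 8.30 and 7.32 and fell by 3.54 (SE 0.31, limma adjusted p = 1.30e-07).

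Dusp1 is both a MAPK phosphatase and an immediate early gene, a class switched on within minutes of a stimulus. It read 7.90, 8.19 and 9.48 against 10.61, 12.14 and 10.60 and fell by 2.59 (SE 0.57, limma adjusted p = 0.00221). Of 24 immediate early genes 13 fell and none rose, and Atf3, a stress-induced factor, read 4.96, 5.04 and 6.91 against 9.02, 10.95 and 10.31 and fell by 4.46 (SE 0.92, limma adjusted p = 0.00135). The factors CREB and ATF bind the motif TGACGTCA, and the Dusp1 promoter (RefSeq, GRCm38.p6, chr17:26508423-26508722, minus strand, written as above) is shown because it was the only promoter of a called gene of this list that held it.
Dusp1: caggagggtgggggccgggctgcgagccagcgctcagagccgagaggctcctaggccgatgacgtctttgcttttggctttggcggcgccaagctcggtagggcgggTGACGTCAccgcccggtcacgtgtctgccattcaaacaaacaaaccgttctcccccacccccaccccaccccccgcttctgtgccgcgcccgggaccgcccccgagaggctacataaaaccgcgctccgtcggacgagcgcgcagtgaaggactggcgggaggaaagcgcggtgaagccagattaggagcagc
The motif is its own reverse complement and was found in 3.73% of promoters of genes called lower, 2.18% of those called higher, 2.40% of those without a call and 1.79% of all promoters. In the immediate early list 2 of 22 promoters held it, those of Dusp1 and Btg2, and Btg2 was not called. No other gene of the list with a promoter in the table held these letters in the 300 bases examined.

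**Figure D3:**
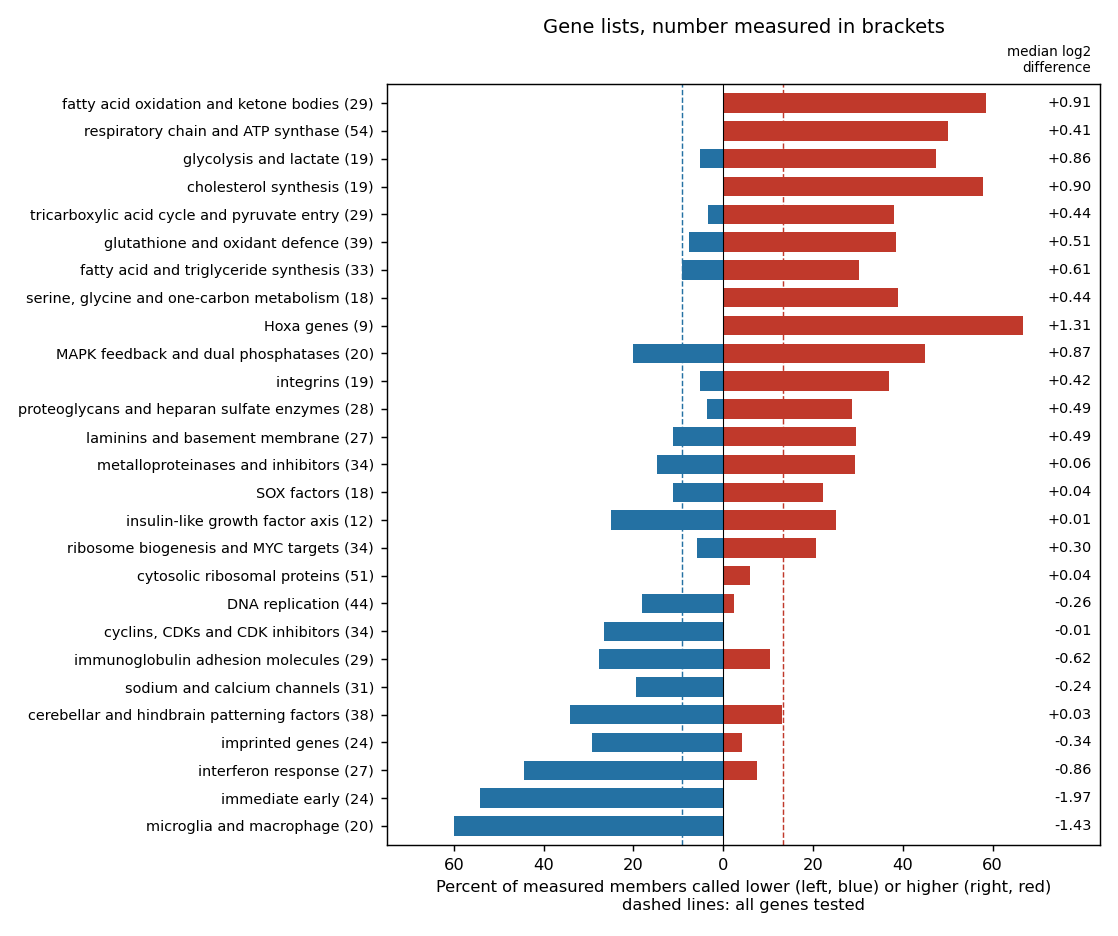
Percent of the measured genes of 27 lists called higher (red, right) or lower (blue, left) in Group3 neurospheres, with the number measured in brackets and the median log2 difference at the right edge. Dashed lines mark all genes tested (13.4% higher and 9.22% lower), and the fatty acid oxidation and respiratory chain bars lie on the higher side only.

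Genes of the extracellular matrix and its receptors were called in both directions. Tnc, the matrix glycoprotein tenascin-C of germinal zones and wounds, read 10.63, 11.22 and 8.91 on the Group3 arrays and 4.38, 4.31 and 6.41 on the Trp53 Cdkn2c arrays. It rose by 5.22 (SE 0.88, limma adjusted p = 0.000221). Reln, which encodes reelin, the secreted protein by which granule cells guide Purkinje cells, read 6.20, 6.13 and 6.61 against 12.16, 12.39 and 12.03 and fell by 5.88 (SE 0.52, limma adjusted p = 1.62e-07). Of 27 genes of laminins and the basement membrane 8 rose and 3 fell, and Lamb2, a laminin chain, rose by 2.65 (SE 0.59, limma adjusted p = 0.00269). Among 28 proteoglycan genes 8 rose and 1, the hyaluronan synthase Has2, fell. Without Group3 replicate 1, Group3 replicate 3 or Trp53 Cdkn2c replicate 3 the count of rises was 5, and without Group3 replicate 2 or 3 no fall was called. Bcan, a brain proteoglycan, rose by 4.45, and Sdc4, a syndecan, by 4.13 (SE 0.67, limma adjusted p = 0.000152). Among 35 collagens 4 rose and 1 fell (14.3% called, against 22.6% of all genes), led by Col5a2 at 4.44.

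Proteases of the matrix were called in both directions, with 10 of 34 genes of the metalloproteinases and their inhibitors higher, 5 lower and a median of 0.06. Adam12, a membrane metalloprotease, read 9.88, 10.33 and 9.13 against 4.24, 4.97 and 4.66 and rose by 5.15 (SE 0.80, limma adjusted p = 9.78e-05), and Adamts9, a secreted relative, rose by 4.10 (SE 0.25, limma adjusted p = 1.18e-09). The inhibitor Timp1 rose by 2.93. Mmp24, a membrane matrix metalloproteinase of neurons, read 4.75, 4.39 and 4.14 against 9.03, 8.66 and 8.41 and fell by 4.28 (SE 0.35, limma adjusted p = 7.59e-08). The lower count was 3 without Group3 replicate 1 or Trp53 Cdkn2c replicate 1 and 2 without Group3 replicate 2. Of 19 integrins 7 rose and 1 fell, or 4 and 1 without Trp53 Cdkn2c replicate 1. Itga6, the laminin-binding subunit found on many neural stem cells, read 9.5, 10.32 and 9.10 against 4.55, 5.17 and 5.59 and rose by 4.54 (SE 0.77, limma adjusted p = 0.000225), whereas Itga7, another laminin-binding subunit, fell by 2.78 (SE 0.61, limma adjusted p = 0.00223).

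The adhesion molecules L1cam and Chl1, close relatives that guide axons, moved apart. L1cam read 4.97, 4.89 and 3.98 against 10.06, 9.29 and 8.83 and fell by 4.78 (SE 0.65, limma adjusted p = 2.63e-05). Chl1 read 10.15, 9.33 and 10.22 against 5.32, 4.56 and 4.04 and rose by 5.26 (SE 1.15, limma adjusted p = 0.00217), with 1 of its other 3 probe sets also called higher and none lower. Of 29 immunoglobulin adhesion genes 3 rose and 8 fell, with a median of -0.62. The axon guidance genes gave 8 higher and 10 lower among 44, or 4 higher without Group3 replicate 1 and 5 without Trp53 Cdkn2c replicate 1. The netrin receptor Dcc read 6.53, 5.22 and 4.19 against 11.13, 11.13 and 10.95 and fell by 5.75 (SE 0.86, limma adjusted p = 6.70e-05), and Sema7a, a membrane-anchored semaphorin, fell by 5.43. Sema3a, a secreted repellent, rose by 3.36 and Nrp2, a receptor of that class, by 2.76. Sodium and calcium channels gave 6 falls and no rise among 31 (1 rise at an unadjusted limma p of 0.05). That is 19.4% called, against 22.6% of all genes. The largest fall was that of Cacng2, the stargazin of granule cells, which read 3.91, 3.83 and 3.89 against 9.33, 9.27 and 8.24. Cacng2 fell by 5.07 (SE 0.44, limma adjusted p = 1.38e-07).

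Among transcription factors, genes of the Hoxa cluster were called higher. Hox genes give cells their position along the body axis and are normally silent in the cerebellum. Of 9 measured Hoxa genes 6 were called higher, and of 25 Hoxb, Hoxc and Hoxd genes 1, or none without Group3 replicate 1 or Trp53 Cdkn2c replicate 2 or 3. Hoxa5 read 8.52, 8.89 and 8.85 on the Group3 arrays and 3.27, 3.29 and 3.37 on the Trp53 Cdkn2c arrays. It rose by 5.44 (SE 0.51, limma adjusted p = 3.18e-07). Hoxa2 read 7.18, 5.995 and 3.63 against 3.08, 3.13 and 3.18 and rose by 2.47 (SE 0.55, limma adjusted p = 0.00242), so Group3 replicate 3 lay near the Trp53 Cdkn2c level. Hoxa7 rose by 1.67, Hoxa4 by 1.31 and Hoxa3 by 0.76. Fitted on the 6 arrays alone, limma adjusted p was 0.0755 for Hoxa2 and 0.0995 for Hoxa7, and the whole list gave 3 calls. Without dim genes it gave 1 call, as that filter takes list members out of the test. Skap2 is the next measured gene beside the cluster on chromosome 6, and the stretch from Skap2 to Hoxa7 was the longest run of neighbours on the array called in one direction (8 genes, differences of 0.76 to 5.85).

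Factors that pattern the cerebellum and hindbrain gave 13 falls and 5 rises among 38 measured. Otx2, which marks the midbrain and human Group 3 tumors and is also made in choroid plexus, read 3.46, 3.40 and 3.36 on the Group3 arrays and 9.54, 9.14 and 9.34 on the Trp53 Cdkn2c arrays. It fell by 5.94 (SE 0.74, limma adjusted p = 8.74e-06). Otx1 fell by 4.71 (SE 0.42, limma adjusted p = 1.62e-07), and Lhx1, a LIM factor, read 3.65, 4.13 and 4.93 against 10.31, 10.40 and 10.06 and fell by 6.02 (SE 0.72, limma adjusted p = 5.94e-06). Choroid plexus and meninges markers were called in both directions, with 3 higher and 4 lower among 17. Irx3, an Iroquois factor, read 9.48, 8.29 and 9.64 against 4.29, 4.75 and 4.15 and rose by 4.74 (SE 0.58, limma adjusted p = 7.55e-06). Uncx and St18, which encode a homeodomain and a zinc finger factor of neurons, read 3.47, 3.20 and 3.71 against 9.80, 10.11 and 9.99 and 2.97, 3.24 and 2.89 against 9.72, 9.55 and 9.87, and fell by 6.51 and 6.68. Sall3, a zinc finger factor, rose by 5.13 (SE 0.47, limma adjusted p = 2.49e-07), on arrays that read 9.51, 9.59 and 8.78 against 4.06, 4.09 and 4.34. A list of 20 genes of the Group 3 and photoreceptor program does not hold Otx2. Of the 20, 17 had both group means below log2 5, so the list lay mostly at low signal. Only Smarcd3, a chromatin remodelling subunit, rose, by 3.28 (SE 0.46, limma adjusted p = 3.34e-05). Nrl was called lower at -0.53, a call lost without Group3 replicate 2 or 3 or Trp53 Cdkn2c replicate 2 or 3. The Nrl call was also lost on the 6 arrays alone (limma adjusted p = 0.101) and on the 12 dka arrays (limma adjusted p = 0.0551). Without Group3 replicate 1, 2 genes of this list were higher.

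SOX factors were called in both directions. Sox8, of the glial SOXE subgroup, read 10.33, 10.45 and 9.34 against 4.47, 5.08 and 5.55 and rose by 5.01 (SE 1.003, limma adjusted p = 0.00107). Sox21, a partner of Sox2 in progenitors, rose by 4.49 (SE 0.77, limma adjusted p = 0.000254), and Sox6, which works with the SOXE factors in glia, by 4.08 (SE 0.58, limma adjusted p = 3.82e-05). Sox11, a factor of young neurons, read 9.91, 10.47 and 9.90 against 11.72, 11.52 and 11.59 and fell by 1.51 (SE 0.18, limma adjusted p = 5.56e-06), and Sox18, a factor of endothelium, read 4.15, 4.25 and 3.97 against 9.38, 9.40 and 10.39 and fell by 5.60 (SE 0.43, limma adjusted p = 2.82e-08). Sox18 is itself 1 of the 17 endothelial markers given above, of which 4 fell and 13 were not called. Both group means lay below log2 5 for 9 of the 17. Of 18 SOX genes measured, 4 rose and 2 fell, and those counts did not move when each array was left out.

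Notch signalling holds neural progenitors undifferentiated. Of 23 Notch, Hes and Id genes 6 were called higher and 1 lower (30.4% called). Notch1, a receptor, read 10.59, 10.66 and 10.45 on the Group3 arrays and 6.39, 6.56 and 8.38 on the Trp53 Cdkn2c arrays. It rose by 3.45 (SE 0.70, limma adjusted p = 0.00118), and Trp53 Cdkn2c replicate 3 was the nearest to the Group3 arrays. Id3, an inhibitor of neurogenic bHLH factors, read 10.80, 10.32 and 10.52 against 4.40, 6.74 and 6.07 and rose by 4.81 (SE 0.82, limma adjusted p = 0.000244). Nrarp, a target and inhibitor of Notch, rose by 2.89 and Notch3 by 2.38, whereas Dtx1, another regulator of the pathway, fell by 3.32 (SE 0.68, limma adjusted p = 0.00137). The lower count was 2 without Group3 replicate 1 or Trp53 Cdkn2c replicate 1. In the WNT pathway 7 of 50 genes rose and 5 fell, which is 24.0% called against 22.6% of all genes. Its receptor gene Fzd9 read 9.43, 7.97 and 9.55 against 4.04, 3.91 and 3.75, a rise of 5.08 (SE 0.45, limma adjusted p = 1.62e-07). In the TGF-beta and BMP pathway 5 of 42 rose and 8 fell (31.0% called), with the receptor Bmpr1b up by 3.59 and the ligand Bmp5 down at -3.96.

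The largest falls outside neuronal genes included genes with several roles. Tbata, a gene named for thymus, brain and testis, read 3.98, 3.74 and 3.92 on the Group3 arrays and 11.67, 11.91 and 11.29 on the Trp53 Cdkn2c arrays. It fell by 7.74 (SE 0.42, limma adjusted p = 1.87e-10), with the other 2 probe sets also lower. Ifi205, an interferon-inducible gene, read 3.26, 2.89 and 3.16 against 9.16, 9.39 and 9.89 and fell by 6.37 (SE 0.28, limma adjusted p = 5.85e-12). Of 27 interferon response genes 12 fell and 2 rose, with a median of -0.86. Cxcl10, a chemokine induced by interferon, read 3.73, 4.09 and 4.30 against 8.36, 8.5 and 8.32 and fell by 4.35 (SE 0.75, limma adjusted p = 0.000281), and Ifih1, a sensor of viral RNA, fell by 2.94 (SE 0.45, limma adjusted p = 7.70e-05). Microglia and macrophage markers were lower as given above, and their part in these falls was not tested. Cavin2, a coat protein of caveolae that is common in endothelium, read 3.87, 5.03 and 5.24 against 10.64, 10.90 and 11.15 and fell by 6.18 (SE 0.41, limma adjusted p = 4.78e-09). Hsd11b2, which inactivates glucocorticoids and shields granule progenitors from them, fell by 5.16 (SE 0.31, limma adjusted p = 8.51e-10). Cyp11a1, the first enzyme of steroid synthesis, fell by 4.95 (SE 0.28, limma adjusted p = 3.66e-10). Each gene named here had its Group3 arrays around or below the array median and its Trp53 Cdkn2c arrays above it. Of 24 imprinted genes 7 fell and 1 rose, with a median of -0.34. Peg3, a paternally expressed zinc finger gene, read 3.94, 7.82 and 6.33 against 10.84, 10.76 and 9.89 and fell by 4.47 (SE 0.94, limma adjusted p = 0.00164), and its Group3 arrays were spread over a wide range.

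Calls among cyclins, CDKs and DNA replication genes were mostly lower. Cdk6, a cyclin D kinase, read 5.19, 4.34 and 6.37 on the Group3 arrays and 10.53, 10.85 and 10.48 on the Trp53 Cdkn2c arrays. It fell by 5.32 (SE 1.04, limma adjusted p = 0.000836), with its other 2 probe sets also lower. Cdk4, its close relative, was not called (difference 0.03, limma adjusted p = 0.926). Of 34 cyclins, CDKs and regulators 9 were called lower and none higher (3 higher at an unadjusted limma p of 0.05). That is 26.5% called, against 22.6% of all genes, but the lower count was 3 without Group3 replicate 2 or Trp53 Cdkn2c replicate 2 and 5 without Group3 replicate 3 or Trp53 Cdkn2c replicate 1. Without Trp53 Cdkn2c replicate 2, 1 was higher. E2f1, a driver of S phase genes, fell by 1.98 (SE 0.27, limma adjusted p = 2.19e-05). Of 44 DNA replication genes 8 fell and 1 rose (20.5% called), with 3 lower without Group3 replicate 2 and 4 without Trp53 Cdkn2c replicate 2 or 3. Without Group3 replicate 2, 3 were higher. Mki67, a marker of dividing cells, read 10.91, 10.56 and 10.83 against 11.47, 11.54 and 10.58 and was not called.

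Genes linked to MYC were called in both directions. Mycn rose by 8.09 (SE 0.33, limma adjusted p = 1.59e-12) in its brightest probe set, while its other 2 probe sets were lower and the mean of its 3 probe sets gave -0.846, so its direction depends on the probe set. Mycl, the third family member, read 5.61, 4.92 and 4.74 against 8.40, 8.88 and 8.79 and fell by 3.60 (SE 0.49, limma adjusted p = 2.72e-05), and Myc, given above, was not called. Of 34 genes of ribosome biogenesis and MYC targets 7 rose and 2 fell (26.5% called, against 22.6% of all genes), with a median of 0.30. Nop16, a nucleolar protein whose gene lies on chromosome 13, described below, rose by 1.51 (SE 0.22, limma adjusted p = 6.45e-05). Without it 6 of 33 rose. Odc1, the ornithine decarboxylase that MYC is known to activate, read 8.28, 8.24 and 8.57 against 9.30, 8.96 and 9.32 and fell by 0.83 (SE 0.15, limma adjusted p = 0.000499). Of 51 cytosolic ribosomal proteins 3 rose and none fell, with a median of 0.04. Of 30 translation factors and tRNA synthetases 5 rose and none fell (16.7% called). Pmaip1, a p53 target that promotes cell death, read 3.28, 4.23 and 3.60 against 7.80, 8.03 and 8.35 and fell by 4.36 (SE 0.69, limma adjusted p = 0.000126), and Plk2, another p53 target, rose by 3.21 (SE 0.90, limma adjusted p = 0.0136). Both groups are labelled Trp53-/-, and of 30 p53 target genes 6 rose and 5 fell, with 3 lower without Group3 replicate 1 or Trp53 Cdkn2c replicate 2. Plk2 also lies on chromosome 13, and of the 28 p53 targets placed elsewhere 4 rose and 5 fell.

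Differences were also examined by chromosome, using 6858 genes placed outside chromosome Y with a mean above log2 7 on the 6 arrays. Chromosome Y had 2 such genes and was left out. On chromosome 13 the median difference was 0.60, and 112 of 241 genes (46.5%) were called higher and 18 (7.5%) lower. Outside chromosomes 13 and 16 the median was 0.07, with 17.1% higher and 12.5% lower, and the medians of single chromosomes ran from -0.08 to 0.23. Each Group3 array showed the excess on chromosome 13, at 0.534, 0.582 and 0.523 above the mean of the Trp53 Cdkn2c arrays. The Trp53 Cdkn2c arrays differed from the mean of the other 2 by -0.171, -0.013 and 0.180. The Group3 values were thus close to each other and larger than the spread within the Trp53 Cdkn2c group. The median was 0.497 to 0.677 when each array was left out. Chromosome 13 was highest of these 20 chromosomes in each of these fits.

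The excess was not even along chromosome 13. With its genes split by position into 5 equal parts the medians were -0.01, 0.18, 0.64, 1.04 and 1.11. In the last part, from Cert1 to Zfp131, 39 of 49 genes were called higher and the 3 Group3 arrays lay at 1.14, 1.22 and 1.12, whereas the Trp53 Cdkn2c arrays differed among themselves by -0.13 to 0.08. In the first part, from Gdi2 to E2f3, 8 of 48 genes were called higher and 9 lower. Neighbouring genes in the distal part included a run of 7, Fam169a, Nsa2, Gfm2, Enc1, Utp15, Ankra2 and Btf3, all called higher with differences of 0.59 to 2.51. The dka tumors and secondary tumors of the series, set against the same 3 Trp53 Cdkn2c arrays, had chromosome 13 medians of 0.479 to 0.592, and Group3 neurosphere replicate 4 of the mmm arrays 0.566. DNA copy number was not measured. Without the genes of chromosome 13, 2118 of 16442 genes (12.9%) were higher and 1534 (9.33%) lower.

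Chromosome 16 had the next highest median, 0.45, with 55 of 211 genes (26.1%) higher and 7 (3.3%) lower. Here the Group3 arrays lay at 0.476, 0.362 and 0.493, but the Trp53 Cdkn2c arrays differed from each other by more than that, at -0.573, -0.174 and 0.731 against the mean of the other 2. The median was 0.202 without Trp53 Cdkn2c replicate 1 and 0.640 without replicate 3. The shift on chromosome 16 therefore did not exceed the spread within the Trp53 Cdkn2c group. In the middle 1 of 5 parts of the chromosome, from Mb21d2 to Arhgap31, Trp53 Cdkn2c replicate 1 was at -1.07 and replicate 2 at 1.01. Trp53 Cdkn2c replicate 3 also stood apart on chromosome 7, at -0.398.

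**Figure D4:**
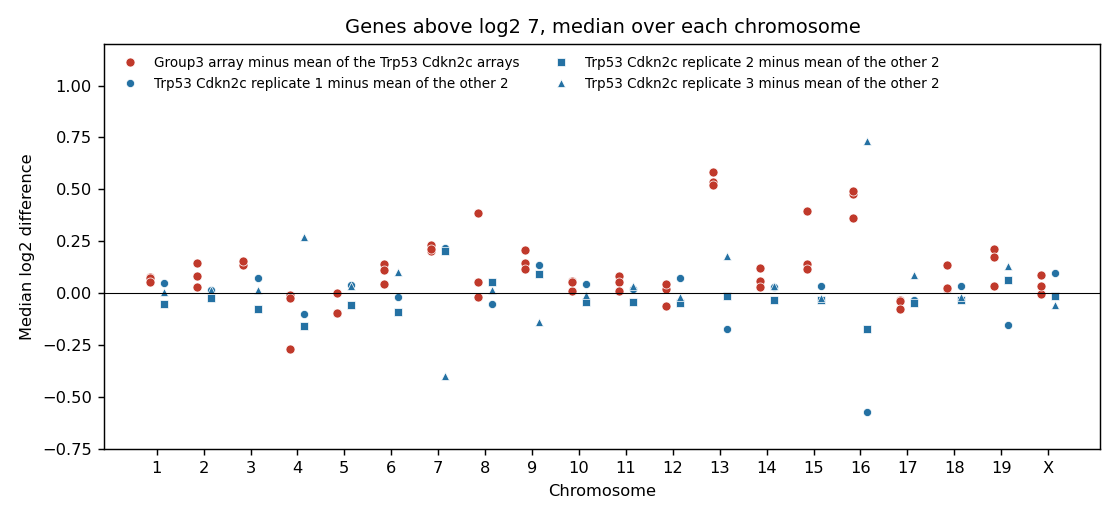
Median log2 difference (y axis) over the genes above log2 7 of each chromosome (x axis), with each Group3 array against the mean of the Trp53 Cdkn2c arrays in red and each Trp53 Cdkn2c array against the other 2 of its group in blue. The red points of chromosome 13 lie at 0.52 to 0.58, above its blue points, and on chromosome 16 the blue points span -0.57 to 0.73.

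**Figure D5:**
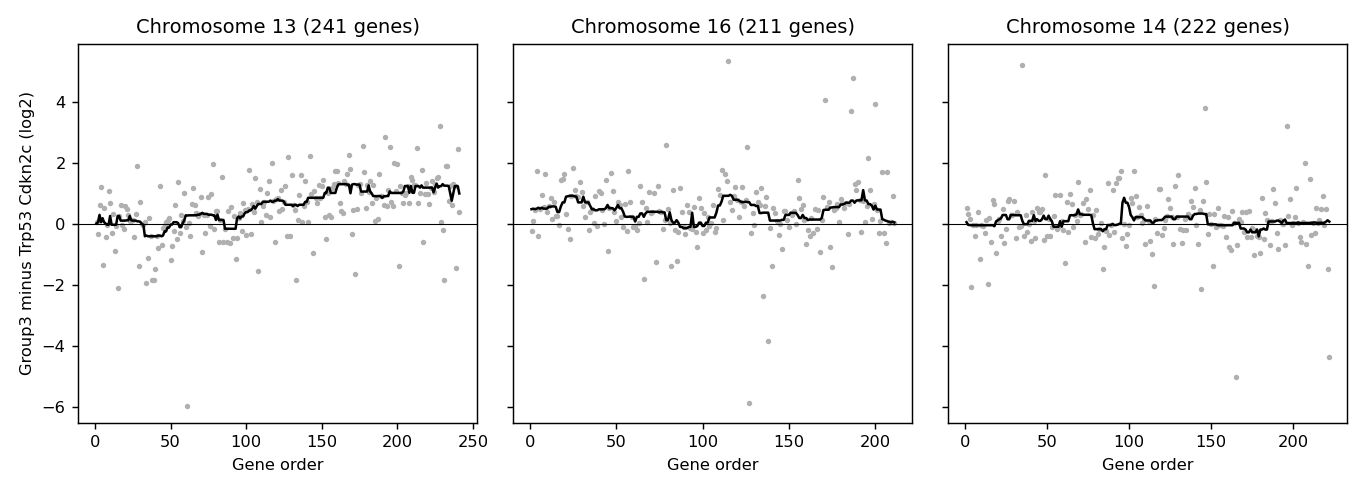
Log2 difference (y axis, Group3 minus Trp53 Cdkn2c) of the genes above log2 7 in their order along chromosomes 13, 16 and 14 (x axis), 1 grey point for each gene, with a running median of 15 genes as the black line. The line leaves 0 in the middle of chromosome 13 and stays near 1 over its distal part, while on chromosome 14 it stays around 0.

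Runs of at least 4 neighbouring measured genes called in one direction numbered 30 over the genome, 25 higher and 5 lower. On chromosome 13 a run of Akr1c13, Akr1c19, Akr1c12 and Akr1c6, aldo-keto reductases of steroid and aldehyde metabolism, was higher by 0.41 to 3.58, and these genes share sequence, so a signal may be read by more than 1 probe set. On chromosome 16 Ifnar1, Ifngr2, Tmem50b, Dnajc28 and Gart were higher by 0.77 to 1.37, where the Trp53 Cdkn2c arrays themselves differed. On chromosome 13 the histone genes H3c11, H2bc22 and H4bc24 with Zfp184 were lower, by differences of -2.74 to -1.08. The complement genes C1qb, C1qc and C1qa, which microglia make, were lower together with Epha8, by differences of -4.03 to -2.99.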

How the data were processed

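The log2 values were used as the authors deposited them. The submitters' processing notes name RMA and Partek 6.6 as the tools, and RMA's version is not given in the sources used here. Per the labels' protocols, RNA was taken with Trizol, amplified with NuGEN Ovation Pico WTA V2, labelled with NuGEN Encore Biotin and read on mouse HT MG-430 PM arrays. Of 45141 probe sets, 104 were controls, 28898 had 1 gene symbol, 551 several and 15588 none. Gene identifiers matched for 28689, which changed 0 symbols. The probe set brightest on average over the 26 arrays stood for each of 7180 genes with more than 1, giving 17097 genes.

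All 26 arrays were fitted with 1 mean for each of 9 groups in limma 3.58.1 (R 4.3.3), so the spread is pooled over the series, and SE is the moderated standard error. Benjamini-Hochberg adjustment ran over all genes, and no filter on low values was used. Group sizes of 3 limit the precision. Alternatives were other sets of arrays, mean of probe sets, a filter on dim genes, quantile normalization, array weights, an intensity trend, a 1.5-fold test and leaving out each array. The code was tested on simulated data. Promoters were found for 13514 genes. Trp53 is not reported here.

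The members and the 76 gene lists were chosen with earlier results of these data known, and lists are described by counts and medians with no set test. Genes were named by rule: the 25 largest rises and falls whose arrays did not overlap, without predicted genes; up to 6 called members per list, or its 2 largest differences where no member was called; the 10 smallest p-values; switched genes; runs of 4 or more neighbours; Myc, Mycn and Cdkn2c; and the 10 largest differences above log2 10. Atoh1, Xist and Eif2s3y were used to check the arrays. Hk2, Gapdh, Fasn, Gclc, Gclm, Igf1, Igf1r, Igfbp5, Igfbp6, Insr, Gfap, Aqp4, Slc1a2, Dusp7, Has2, Cdk4 and Mki67 were chosen after their values were seen.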

Additional observations from a re-analysis of the deposited data

How the results depend on the processing

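The counts of genes called higher (2049 to 3090) and lower (1438 to 2085) stayed within 1.5 times those reported under the other sets of arrays, the mean of probe sets, the dim gene filter, quantile normalization, array weights and the intensity trend. The genes called were not all the same. Of the 3865 calls reported, 3168 were shared with the fit on the 6 arrays alone and 3309 with the fit on the 12 dka arrays. With an array left out 2838 to 3121 were shared. Leaving out each array gave 1695 to 1970 higher and 1236 to 1376 lower, and the test against a 1.5-fold change 684 and 545. Of 545 called genes considered for naming, 139 lost the call when at least 1 array was left out and 93 under at least 1 other alternative, the 1.5-fold test aside. The direction of 1 reversed, Mycn with the mean of its probe sets (-0.846), and the reversal follows from its other probe sets being lower. The chromosome 13 median was 0.491 with the mean of probe sets, 0.541 with quantile normalization and 0.497 to 0.677 with an array left out. The chromosome 16 median was 0.339, 0.389 and 0.202 to 0.640 in the same order, and 0.532 with array weights. The cause of these shifts was not tested. Leaving out genes of chromosomes 13 and 16, chosen after the data were seen, left 2020 higher and 1510 lower of 15881. Signals near the array median limit the size of differences. No paired analysis was possible because the replicate numbers follow accession order and pair no arrays.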

Other observations

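Genes of transmitter synthesis and transmitter receptors, lipid carriage and protein folding were also called and are not described above. Gad1, which makes the transmitter GABA, rose by 4.55 (SE 1.23, limma adjusted p = 0.0107), and read 7.83, 7.98 and 8.65 against 3.64, 3.68 and 3.51. Grm3 and Grm5, metabotropic glutamate receptors, rose by 4.66 and 3.79, while Grik2, a kainate receptor, fell by 2.75. Of 36 genes of GABA and glutamate receptors and uptake 5 were called higher and 4 lower. Among lipid carriers Plin3, a lipid droplet coat protein, rose by 3.89 (SE 0.89, limma adjusted p = 0.00321) and Apod, an apolipoprotein, fell by 3.13 (SE 0.64, limma adjusted p = 0.0012). Of 27 genes of lipid binding 7 rose and 2 fell, with 4 higher without Group3 replicate 1 or 3 or Trp53 Cdkn2c replicate 1 or 3. Ephx1, an epoxide hydrolase listed among p53 targets, rose by 5.08 (SE 0.41, limma adjusted p = 5.54e-08), on arrays that read 9.23, 10.37 and 10.27 against 5.24, 4.35 and 5.04. Serpinh1, the collagen chaperone, rose by 2.52 (SE 0.51, limma adjusted p = 0.00122) and Selenop, a selenium carrier, by 2.59 (SE 0.58, limma adjusted p = 0.00266).

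On other chromosomes single arrays stood apart by smaller amounts. Group3 replicate 1 had a median of 0.386 on chromosome 8 against -0.018 and 0.053 for replicates 2 and 3, and Group3 replicate 3 had 0.395 on chromosome 15 against 0.140 and 0.114. The 4 Group3 neurosphere arrays with the title code mmm were not used as further replicates. The mean of the first 3 of them differed from the mean of the dka Group3 arrays with an SD of 0.139 over probe sets, below the 0.407 to 0.481 by which 1 dka array differed from the mean of the other 2. The fourth differed by 0.577.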
